A study of Homo sapiens with 12 samples.

Results

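The E2F transcription factors E2F1 to E2F8 and their dimer partners TFDP1 and TFDP2, 10 genes in all, were followed through silencing of cyclin D1 in Granta-519 and JeKo-1, established lines of mantle cell lymphoma. The 10 genes were taken by symbol from the tables of the 2 lines, which hold 23617 symbols for Granta-519 and 23615 for JeKo-1. Each gene stood on 1 row of each table, and all 10 reached the minimum level for testing in both lines. Mantle cell lymphoma is a B-cell lymphoma in which a translocation typically places CCND1, the cyclin D1 gene, beside the immunoglobulin heavy chain locus. Granta-519 with an shRNA against cyclin D1 (shCycD1), Granta-519 with a control shRNA (shCtrl), JeKo-1 shCycD1 and JeKo-1 shCtrl made up the 4 groups of 3 libraries. Both shRNAs came on a lentivirus, and all cells were selected with puromycin, so infection and selection were shared by all 12 libraries. The sources used here give neither the time after infection nor the number of different hairpins. The series design calls the libraries of a group biological replicates, with no word on whether they came from separate infections.

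The E2F factors bind the promoters of genes for DNA synthesis and cell division. Cyclin D with CDK4 or CDK6 phosphorylates the retinoblastoma protein RB, which releases the activator factors E2F1, E2F2 and E2F3 to switch on genes of the G1 to S transition. E2F4 and E2F5 act mainly as repressors with the pocket proteins p107 and p130, E2F6 represses through a Polycomb complex without pocket proteins, and E2F7 and E2F8 are atypical repressors that bind DNA without a DP partner and turn E2F targets down again later in the cycle. The classic E2F factors bind DNA as dimers with DP1 (TFDP1) or DP2 (TFDP2).

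Several E2F genes carry E2F sites in their own promoters, so the promoters of the members were searched for 4 letter strings of the E2F site. RefSeq promoters (GRCh38.p14, 250 bases before to 50 after each start) were matched by symbol for 8 of the 10 members, E2F1 to E2F4, E2F6, E2F7, TFDP1 and TFDP2. The search covered TTTCCCGC, TTTCGCGC, TTTGCCGC and TTTGGCGC on both strands, and 3.315% of all 35116 promoters hold at least 1 of these strings. The 130 bases upstream of the start are shown for the 4 members with a match and for 2 without, E2F4 and TFDP2, both higher after silencing in JeKo-1. Capitals mark the matches, and each sequence reads 5′ to 3′ on the strand of its gene.
E2F1, chr20:33686386-33686515 on the minus strand: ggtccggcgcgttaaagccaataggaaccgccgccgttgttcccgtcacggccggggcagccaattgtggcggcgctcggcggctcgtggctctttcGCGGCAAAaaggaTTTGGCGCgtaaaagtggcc
E2F2, chr1:23531234-23531363 on the minus strand: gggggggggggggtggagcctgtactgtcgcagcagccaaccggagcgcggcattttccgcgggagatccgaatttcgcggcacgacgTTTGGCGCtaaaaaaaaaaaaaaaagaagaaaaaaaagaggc
E2F3, chr6:20401749-20401878 on the plus strand: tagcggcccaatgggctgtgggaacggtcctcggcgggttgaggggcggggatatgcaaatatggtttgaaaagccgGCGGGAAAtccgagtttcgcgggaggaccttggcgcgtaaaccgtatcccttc
TFDP1, chr13:113584623-113584752 on the plus strand: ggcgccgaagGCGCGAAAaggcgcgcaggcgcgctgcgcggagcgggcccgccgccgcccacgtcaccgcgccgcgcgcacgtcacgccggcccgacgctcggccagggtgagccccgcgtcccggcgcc
E2F4, chr16:67192025-67192154 on the plus strand: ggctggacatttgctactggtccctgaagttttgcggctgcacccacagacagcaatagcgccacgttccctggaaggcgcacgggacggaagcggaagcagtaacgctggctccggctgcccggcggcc
TFDP2, chr3:142149545-142149674 on the minus strand: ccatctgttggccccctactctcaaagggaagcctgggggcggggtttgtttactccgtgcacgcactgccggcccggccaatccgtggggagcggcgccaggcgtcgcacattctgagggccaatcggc
E2F1 held 2 matches, the first bases of which lie 33 and 20 bases upstream of the start, and 0.1452% of all promoters hold at least 2. E2F2 held 1 match 42 bases upstream, and TFDP1 held 1 match 120 bases upstream. E2F3 has 2 RefSeq windows, and the one shown held 1 match 53 bases upstream. E2F4, E2F6, E2F7 and the 3 windows of TFDP2 held none of these strings. The windows of E2F6 and E2F7 are not shown. E2F7 was lower after silencing in JeKo-1. Neither E2F6 nor E2F3, which has a match, was called in the main fit of either line, described below. E2F3 in JeKo-1 sat at the threshold (adjusted p = 0.0523 by limma) and was called under some of the alternatives. The string TTTGAA, known as the CHR element of genes expressed late in the cycle, was found in 1 window of E2F3 and in 2 of the 3 windows of TFDP2, against 15.16% of all promoters. A match is a string of letters and not a measured binding site.

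Values are RPKM, reads scaled to gene length and to library size, recovered from the deposited natural logarithms. The Granta-519 table uses the genomic span of a gene as its length and the JeKo-1 table does not, so a level was never compared between the lines. Levels of different E2F and DP genes were compared in Granta-519 only after rescaling to transcript length. The sums of marker genes below use the deposited values, so in Granta-519 they join genes scaled to unlike lengths. In JeKo-1 all levels were compared as deposited, and which gene length those values use was not established. In Granta-519 the members were backed by about 528 reads (E2F2) to 12034 reads (TFDP1) in the library with the fewest and the library with the most. The read depth of the JeKo-1 libraries could not be recovered. Changes are log2 of shCycD1 over shCtrl on log2(RPKM + 0.5), with a standard error (SE) and an adjusted p from limma over all genes tested in a line, called at an adjusted p under 0.05. B-cell genes summed to 2178 to 2261 RPKM in Granta-519 shCycD1 and 2387 to 2503 RPKM in Granta-519 shCtrl, and to 1286 to 1458 RPKM in JeKo-1 shCycD1 and 917 to 1056 RPKM in JeKo-1 shCtrl. CD5, a usual marker of mantle cell lymphoma, stayed below 1 RPKM in every Granta-519 library. Granta-519 values are per kilobase of genomic span and were not rescaled for markers, so below 1 RPKM there need not mean that a gene is silent. T and NK cell markers summed to 0.779 to 0.885 RPKM in Granta-519 shCycD1 and 0.733 to 1.25 RPKM in shCtrl, with 6 of 7 below 1 RPKM in every library. In JeKo-1 they summed to 5.10 to 5.15 RPKM in shCycD1 and 3.35 to 4.09 RPKM in shCtrl. There CD3E, CD2, NKG7 and GNLY, 4 of 7, stayed below 1 RPKM in every library. CD7 and CD3G were high enough to test in JeKo-1 and were called higher. CD7 averaged 2.46 RPKM in shCycD1 and 1.21 RPKM in shCtrl (log2 change 0.79, adjusted p = 0.000202). For CD3G these means were 1.78 and 1.37 RPKM (0.28, adjusted p = 0.046). Myeloid markers summed to 40.9 to 47.6 RPKM in Granta-519 shCycD1 and 46.9 to 52.8 RPKM in shCtrl, mostly CSF1R, with LYZ, S100A8 and S100A9 below 1 RPKM, and to at most 2.41 RPKM in JeKo-1. Stromal and epithelial markers summed to 11.8 to 14.1 RPKM in Granta-519 shCycD1 and 9.02 to 12.8 RPKM in shCtrl, and to at most 1.72 RPKM in JeKo-1. In Granta-519 COL1A1 averaged 8.28 RPKM in shCycD1 and 5.78 RPKM in shCtrl and was called higher (0.48, adjusted p = 0.019). ITGAM, a myeloid marker, averaged 1.77 and 1.23 RPKM there and was also called higher (0.39, adjusted p = 0.0329). CSF1R and KRT18, the others of these lists tested in Granta-519, were not called. The part of such cells in the changes below was not tested. The silenced gene itself was lower in all shCycD1 libraries. CCND1 averaged 268 ± 47.3 RPKM in Granta-519 shCycD1 and 947 ± 87.2 RPKM in Granta-519 shCtrl, and 65.9 ± 1.39 RPKM in JeKo-1 shCycD1 and 347 ± 42.3 RPKM in JeKo-1 shCtrl (SD, n = 3 each).

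In both lines E2F1, E2F2, E2F8 and TFDP1 fell after cyclin D1 silencing, and TFDP2 rose. In JeKo-1 E2F7 also fell, and E2F4 and E2F5 rose, whereas none of the 3 was called in Granta-519 on the deposited scale. Of the 10 genes, 1 rose, 4 fell and 5 were not called in Granta-519, where 40.6% of all genes tested were called, 22.4% higher and 18.2% lower. In JeKo-1, 3 rose, 5 fell and 2 were not called, where 64.6% of all genes were called, 36.7% higher and 27.8% lower. The median change of the 10 genes was -0.06 in Granta-519 and -0.70 in JeKo-1, against 0.03 and 0.09 for all genes tested. These counts and directions take the deposited scale as it is. Scaling Granta-519 by its spike-ins, synthetic RNAs present in the tables, raised the median change of all its genes to 0.72 and turned 2840 genes called higher and 2303 lower into 7362 higher and 161 lower. Under that scaling E2F1, E2F2 and E2F8 still fell in Granta-519 (log2 changes of -0.68 for E2F1, -0.76 for E2F2 and -0.83 for E2F8), E2F4, E2F6 and TFDP2 rose (0.79, 0.70 and 1.01), and the call of TFDP1 was lost (-0.43, adjusted p = 0.188). The spike-ins took 5.34 to 6.41% of the summed RPKM in Granta-519 shCycD1 and 7.90 to 11.6% in Granta-519 shCtrl, and which scale is right was not tested. In JeKo-1 they took 4.51 to 7.37% in shCycD1 and 4.64 to 6.77% in shCtrl. In bulk RNA, fewer cells in a cycle phase and less RNA per cell cannot be told apart.

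**Figure D1:**
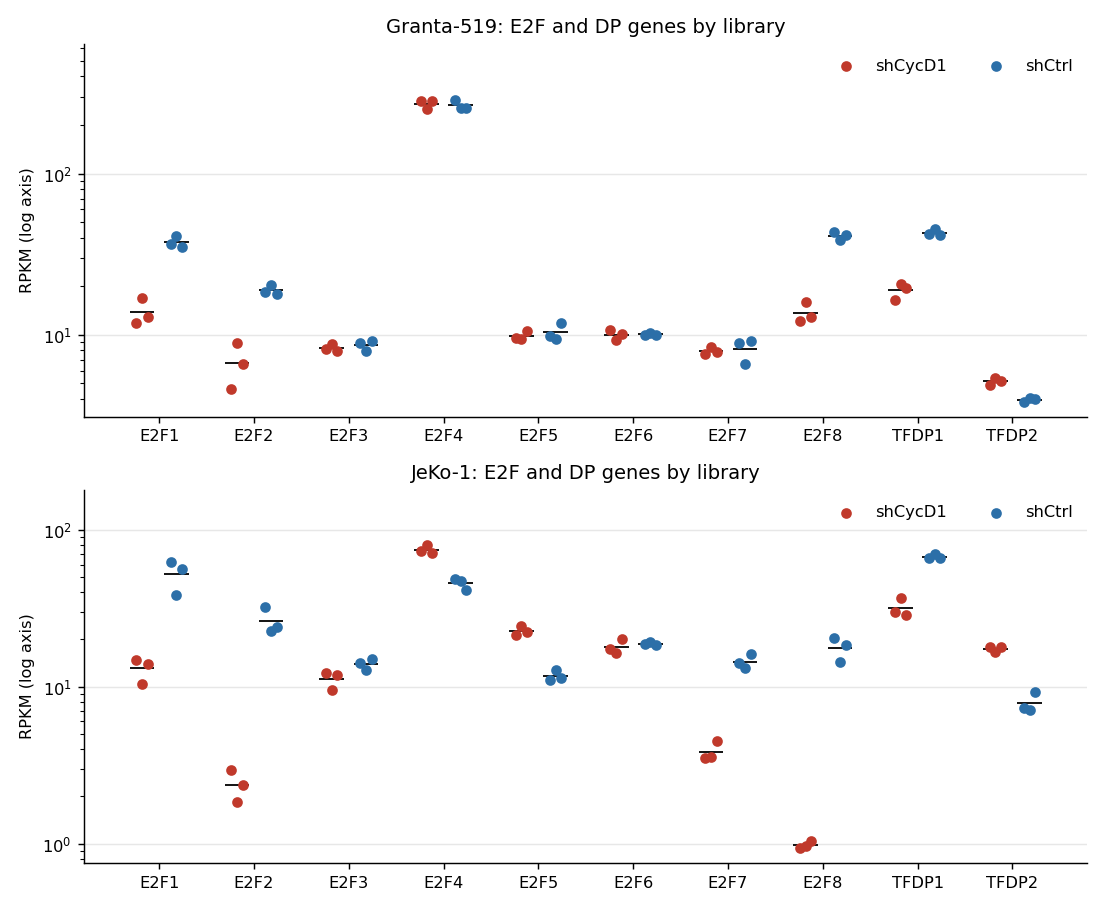
RPKM of the 10 genes in each library (log axis), Granta-519 above and JeKo-1 below, shCycD1 in red left of shCtrl in blue, with a black line at the mean of 3 libraries. E2F1, E2F2, E2F8 and TFDP1 are lower in all shCycD1 libraries of both lines, TFDP2 is higher in all of them, and levels cannot be compared between the panels.

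Among the activators, E2F1 and E2F2 fell in both lines and E2F3 was not called in either. E2F1, the activator that also drives apoptosis genes, had 11.8, 17.0 and 12.9 RPKM in Granta-519 shCycD1 and 36.7, 40.8 and 35.0 RPKM in Granta-519 shCtrl. The JeKo-1 libraries held 14.9, 10.4 and 14.0 RPKM in shCycD1 and 62.1, 38.5 and 56.6 RPKM in shCtrl. The groups did not overlap in either line, as for 54% of all Granta-519 genes tested and 69.6% of all JeKo-1 genes tested. The second JeKo-1 library of each group was the lowest of its group. The log2 change was -1.42 ± 0.14 in Granta-519 (SE, adjusted p = 0.000525) and -1.95 ± 0.20 in JeKo-1 (adjusted p = 0.00016), which is 2.67-fold and 3.85-fold lower. E2F2, an activator with a large role in lymphoid and erythroid cells of mice, had 4.61, 8.90 and 6.63 RPKM in Granta-519 shCycD1 and 18.6, 20.4 and 17.9 RPKM in Granta-519 shCtrl. Values in JeKo-1 were 2.95, 1.83 and 2.35 RPKM in shCycD1 and 32.0, 22.6 and 23.9 RPKM in shCtrl. All shCycD1 libraries lay below all shCtrl libraries in both lines. E2F2 was 2.78-fold lower in Granta-519 (log2 change -1.47 ± 0.21, adjusted p = 0.00201) and 9.28-fold lower in JeKo-1 (-3.21 ± 0.18, adjusted p = 1.01e-05).

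E2F3 gives rise to an activator isoform and a shorter isoform from different starts, which a value per gene cannot separate. It had 8.18, 8.77 and 7.96 RPKM in Granta-519 shCycD1 and 8.94, 7.93 and 9.18 RPKM in Granta-519 shCtrl, so the groups overlapped. Its JeKo-1 values were 12.3, 9.46 and 11.8 RPKM in shCycD1 and 14.1, 12.8 and 15.1 RPKM in shCtrl, with the shCycD1 libraries all below. The log2 change was -0.06 ± 0.09 in Granta-519 (adjusted p = 0.624) and -0.31 ± 0.12 in JeKo-1 (adjusted p = 0.0523). The JeKo-1 value sits at the threshold and was called lower after quantile normalization (-0.39, adjusted p = 0.0229) and without the second shCtrl library (-0.38, adjusted p = 0.0484) or the first shCycD1 library (-0.38, adjusted p = 0.0464). It was smaller after GC correction (-0.17, adjusted p = 0.218) and without the second shCycD1 library (-0.20, adjusted p = 0.146).

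E2F4 and E2F5, the repressors that work with p107 and p130, rose in JeKo-1 and were not called in Granta-519. E2F4 had 281, 252 and 281 RPKM in Granta-519 shCycD1 and 285, 255 and 253 RPKM in Granta-519 shCtrl. The JeKo-1 libraries held 73.2, 79.4 and 70.8 RPKM in shCycD1 and 48.6, 47.1 and 41.0 RPKM in shCtrl. The groups overlapped in Granta-519 and stood apart in JeKo-1. The log2 change was 0.04 ± 0.08 in Granta-519 (adjusted p = 0.746) and 0.71 ± 0.09 in JeKo-1 (adjusted p = 0.000376), a 1.63-fold rise. After a correction for GC content the JeKo-1 change was 0.44, and with spike-in scaling it was 0.58 and no longer called (adjusted p = 0.182). E2F5 had 9.62, 9.49 and 10.5 RPKM in Granta-519 shCycD1 and 9.82, 9.36 and 11.9 RPKM in Granta-519 shCtrl. Values in JeKo-1 were 21.5, 24.2 and 22.3 RPKM in shCycD1 and 11.0, 12.8 and 11.3 RPKM in shCtrl. As for E2F4, the Granta-519 groups overlapped and the JeKo-1 shCycD1 libraries all lay above shCtrl. The log2 change of E2F5 was -0.06 ± 0.11 in Granta-519 (adjusted p = 0.683) and 0.93 ± 0.09 in JeKo-1 (adjusted p = 0.00013), a 1.90-fold rise.

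E2F6 was not called in either line on the deposited scale. This factor lacks the regions that bind pocket proteins and activate transcription. It had 10.7, 9.24 and 10.1 RPKM in Granta-519 shCycD1 and 9.96, 10.3 and 9.92 RPKM in Granta-519 shCtrl. Its JeKo-1 values were 17.4, 16.3 and 20.0 RPKM in shCycD1 and 18.6, 19.2 and 18.4 RPKM in shCtrl. The groups overlapped in both lines, with log2 changes of -0.01 ± 0.08 in Granta-519 (adjusted p = 0.914) and -0.07 ± 0.09 in JeKo-1 (adjusted p = 0.526).

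Of the atypical repressors, E2F8 fell in both lines and E2F7 in JeKo-1. The factors are themselves E2F targets and repress E2F1 late in the cycle. E2F7 had 7.65, 8.40 and 7.78 RPKM in Granta-519 shCycD1 and 8.95, 6.57 and 9.16 RPKM in Granta-519 shCtrl. The JeKo-1 libraries held 3.53, 3.57 and 4.47 RPKM in shCycD1 and 14.0, 13.1 and 16.1 RPKM in shCtrl. The second Granta-519 shCtrl library lay below all 3 shCycD1 libraries, whereas the JeKo-1 groups stood apart. The log2 change of E2F7 was -0.03 ± 0.13 in Granta-519 (adjusted p = 0.859) and -1.77 ± 0.12 in JeKo-1 (adjusted p = 2.47e-05), 3.42-fold lower. E2F8 had 12.2, 16.0 and 12.8 RPKM in Granta-519 shCycD1 and 43.5, 38.5 and 41.8 RPKM in Granta-519 shCtrl. Values in JeKo-1 were 0.940, 0.971 and 1.03 RPKM in shCycD1 and 20.3, 14.3 and 18.3 RPKM in shCtrl. E2F8 in JeKo-1 reached the minimum of 1 RPKM in the 3 shCtrl libraries and, within shCycD1, in the third library alone. It thus passed the filter of 3 libraries through shCtrl. Its log2 change was -1.57 ± 0.12 in Granta-519 (adjusted p = 0.000219), 2.96-fold lower, and -3.60 ± 0.14 in JeKo-1 (adjusted p = 1.72e-06), 12.1-fold lower. The JeKo-1 change was -4.02 with a pseudocount of 0.1 and -3.22 with a pseudocount of 1, since the low shCycD1 values lie close to the pseudocount.

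The DP partners moved in opposite directions. TFDP1, which encodes the main partner DP1, had 16.4, 20.7 and 19.7 RPKM in Granta-519 shCycD1 and 42.1, 45.0 and 41.8 RPKM in Granta-519 shCtrl. Its JeKo-1 values were 29.8, 36.8 and 28.6 RPKM in shCycD1 and 66.1, 70.2 and 65.7 RPKM in shCtrl. The groups stood apart in both lines, with log2 changes of -1.17 ± 0.10 in Granta-519 (adjusted p = 0.00031) and -1.08 ± 0.10 in JeKo-1 (adjusted p = 0.000112), or 2.25-fold and 2.11-fold lower. TFDP2, which encodes DP2, had 4.87, 5.38 and 5.17 RPKM in Granta-519 shCycD1 and 3.86, 4.03 and 3.99 RPKM in Granta-519 shCtrl. The JeKo-1 libraries held 17.8, 16.7 and 17.8 RPKM in shCycD1 and 7.29, 7.05 and 9.24 RPKM in shCtrl. All shCycD1 libraries lay above all shCtrl libraries in both lines. TFDP2 rose 1.26-fold in Granta-519 (log2 change 0.34 ± 0.08, adjusted p = 0.0144) and 2.16-fold in JeKo-1 (1.11 ± 0.11, adjusted p = 0.00015). The Granta-519 call was lost without the first shCtrl library (0.32, adjusted p = 0.0589) or without the third shCycD1 library (0.33, adjusted p = 0.0558).

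**Figure D2:**
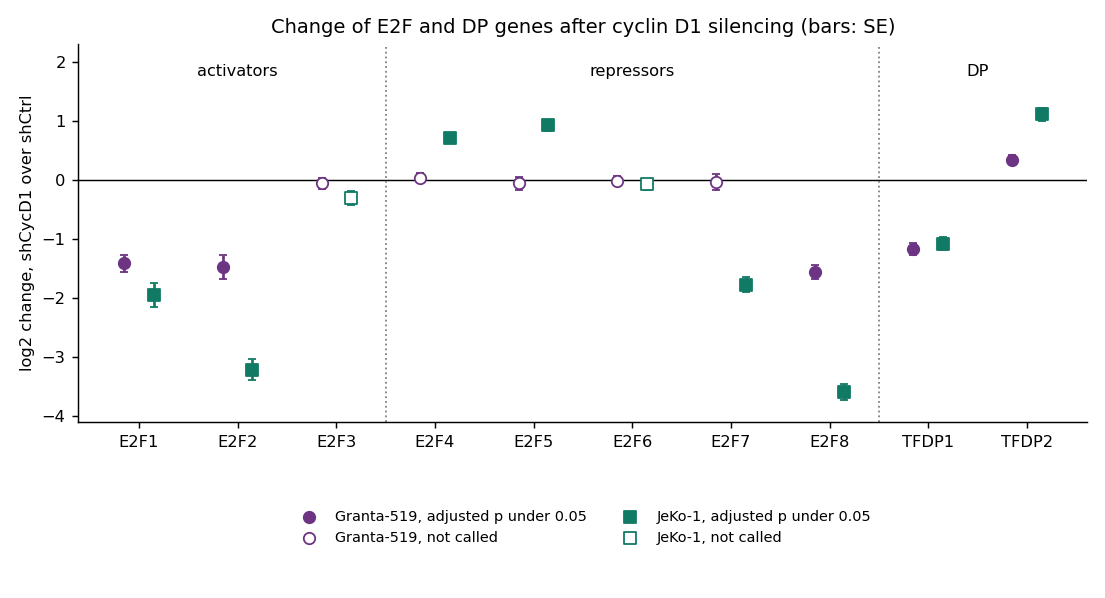
Log2 change (shCycD1 over shCtrl) of each gene in Granta-519 (circles) and JeKo-1 (squares), with bars for the SE, filled where the adjusted p is under 0.05. E2F8 and E2F2 lie lowest in JeKo-1, at -3.60 and -3.21, and TFDP2 lies above 0 in both lines.

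Activator and repressor genes did not separate cleanly by direction. The 3 activators had a mean log2 change of -0.98 in Granta-519, where the 5 repressors E2F4 to E2F8 had -0.33. In JeKo-1 these means were -1.82 and -0.76. The activators minus the repressors came to -0.66 for Granta-519 and -1.06 for JeKo-1, given without a test, and to -1.31 in JeKo-1 after GC correction. The repressor mean joins unlike genes. E2F4 to E2F6 had a mean of -0.01 in Granta-519 and 0.52 in JeKo-1, whereas E2F7 and E2F8 had -0.80 and -2.69. In Granta-519, 2 of 3 activators and 1 of 5 repressors fell and none of the 8 rose. In JeKo-1, 2 of 3 activators fell, and of the 5 repressors 2 fell and 2 rose. The shares over all genes were 22.4% higher and 18.2% lower in Granta-519, and 36.7% higher and 27.8% lower in JeKo-1. With only 5 repressors, their counts do not stand out from these shares.

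Shares of the family within a library do not depend on how libraries are scaled to each other. Granta-519 levels were rescaled per transcript kilobase, and JeKo-1 levels were used as deposited. E2F1 to E2F3 made up 15.3, 19.3 and 15.8% of the summed level of the 8 E2F genes in Granta-519 shCycD1 and 22.6, 24.8 and 23.1% in Granta-519 shCtrl. In JeKo-1 the activators made up 20.5, 14.9 and 19.2% in shCycD1 and 49.0, 40.9 and 47.6% in shCtrl. The activator share was lower in every shCycD1 library of both lines than in any shCtrl library of the same line. E2F4 to E2F6 made up 76.8, 71.0 and 76.2% in Granta-519 shCycD1 and 62.3, 61.4 and 61.5% in Granta-519 shCtrl, and 76.4, 82.0 and 77.0% in JeKo-1 shCycD1 and 35.4, 43.9 and 35.3% in JeKo-1 shCtrl. E2F7 and E2F8 made up 7.90, 9.72 and 8.04% in Granta-519 shCycD1 and 15.2, 13.9 and 15.4% in Granta-519 shCtrl, and 3.05, 3.10 and 3.75% in JeKo-1 shCycD1 and 15.6, 15.2 and 17.1% in JeKo-1 shCtrl. E2F4 was the largest single part after silencing, with 59.8, 54.5 and 58.7% in Granta-519 shCycD1 and 49.9, 54.3 and 48.2% in JeKo-1 shCycD1. In shCtrl it made up 48.7, 47.1 and 45.0% in Granta-519 and 22.0, 26.1 and 20.4% in JeKo-1.

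**Figure D3:**
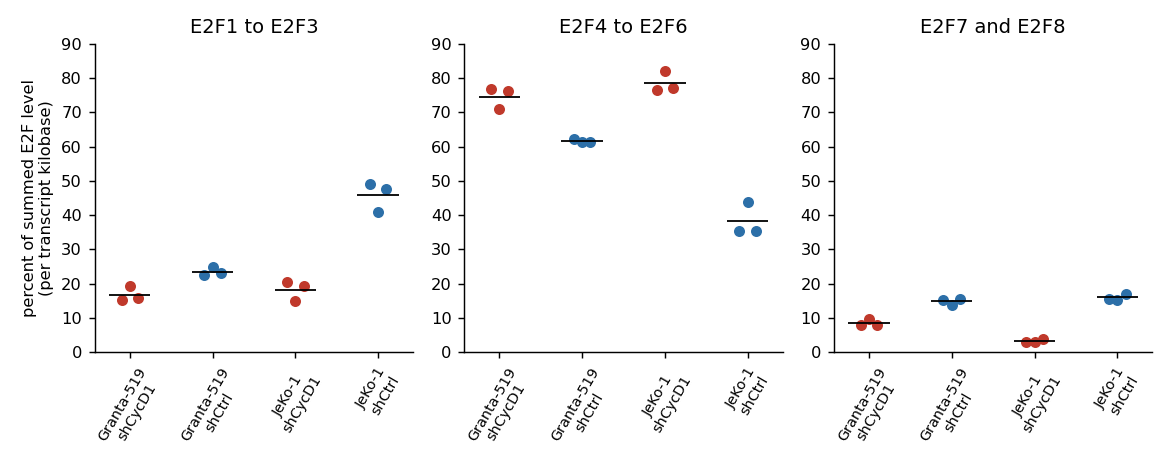
Percent of the summed E2F1 to E2F8 level held by E2F1 to E2F3, by E2F4 to E2F6 and by E2F7 and E2F8 in each library, shCycD1 in red and shCtrl in blue, with a line at the mean. Levels are per transcript kilobase in Granta-519 and as deposited in JeKo-1. In all 3 panels the shCycD1 and shCtrl libraries of a line stand apart, and the group means lie further apart in JeKo-1.

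Ratios between single members likewise need no scaling between libraries. E2F1 stood at 0.203, 0.131 and 0.198 times the level of E2F4 in JeKo-1 shCycD1 and at 1.28, 0.818 and 1.38 times in JeKo-1 shCtrl. TFDP1 stood at 1.67, 2.20 and 1.61 times TFDP2 in JeKo-1 shCycD1 and at 9.06, 9.95 and 7.11 times in JeKo-1 shCtrl, and at 3.48, 3.96 and 3.91 times in Granta-519 shCycD1 and 11.3, 11.5 and 10.8 times in Granta-519 shCtrl. E2F8 stood at 0.266, 0.272 and 0.231 times E2F7 in JeKo-1 shCycD1 and at 1.45, 1.09 and 1.14 times in JeKo-1 shCtrl. The groups stood apart in each of these ratios, which rest on one length per gene and, in Granta-519, on spans that hold any intron reads.

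The order of levels changed accordingly. In JeKo-1 shCycD1 the order of the deposited levels was E2F4, TFDP1, E2F5, E2F6, TFDP2, E2F1, E2F3, E2F7, E2F2 and E2F8. The libraries overlapped between E2F6 and TFDP2 and between E2F1 and E2F3. In JeKo-1 shCtrl the order was TFDP1, E2F1, E2F4, E2F2, E2F6, E2F8, E2F7, E2F3, E2F5 and TFDP2, with overlap between E2F1 and E2F4 and between each neighbouring pair from E2F6 to E2F5. Rescaled Granta-519 levels ran E2F4, TFDP1, E2F5, E2F3, TFDP2, E2F8, E2F6, E2F7, E2F1 and E2F2 in shCycD1, with overlap among E2F8, E2F6, E2F7 and E2F1. In Granta-519 shCtrl they ran TFDP1, E2F4, E2F8, E2F5, E2F3, E2F1, E2F2, TFDP2, E2F6 and E2F7, with overlap between TFDP1 and E2F4, E2F8 and E2F5, E2F3 and E2F1, and E2F6 and E2F7. E2F4 was thus first in both shCycD1 groups, and E2F2 was in the last 2 places of both.

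The changes of 6 genes differed between the lines in a joint limma fit of all 12 libraries, where 41.9% of the 10653 genes tested differed. E2F2, E2F7 and E2F8 had lower changes in JeKo-1, with differences (Granta-519 minus JeKo-1) of 1.74 ± 0.30 (adjusted p = 0.000812), 1.74 ± 0.19 (adjusted p = 3.30e-05) and 2.03 ± 0.18 (adjusted p = 9.38e-06). E2F4, E2F5 and TFDP2 had higher changes in JeKo-1, with differences of -0.67 ± 0.12 (adjusted p = 0.00111), -0.99 ± 0.14 (adjusted p = 0.000244) and -0.77 ± 0.14 (adjusted p = 0.001). With spike-in scaling these last 3 differences were not called and stood at 0.20, -0.15 and 0.02. For TFDP1 the difference was -0.09 ± 0.15 (adjusted p = 0.659), for E2F6 0.06 ± 0.12 (adjusted p = 0.72) and for E2F3 0.25 ± 0.15 (adjusted p = 0.196), which with spike-in scaling was 1.08 and called (adjusted p = 0.0315). E2F1 gave 0.53 ± 0.27 (adjusted p = 0.133), which was called without the second JeKo-1 shCtrl library (0.74, adjusted p = 0.0262), after GC correction (0.94, adjusted p = 0.00532) and with spike-in scaling (1.38, adjusted p = 0.00766). CCND1 itself fell by 1.83 ± 0.14 in Granta-519 (adjusted p = 0.000257) and by 2.38 ± 0.09 in JeKo-1 (adjusted p = 1.96e-06), a difference of 0.55 ± 0.18 (adjusted p = 0.0306). That call was lost after quantile normalization (0.38, adjusted p = 0.0886) and in 7 of the 12 fits without 1 library.

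The pocket proteins that hold the E2F factors moved unequally. RB1, which encodes the partner of the activators, averaged 11.9 ± 0.0733 RPKM in Granta-519 shCycD1 and 12.6 ± 0.472 RPKM in Granta-519 shCtrl (log2 change -0.08, adjusted p = 0.386), and 41.8 ± 6.46 RPKM in JeKo-1 shCycD1 and 69.3 ± 11.1 RPKM in JeKo-1 shCtrl (-0.72, adjusted p = 0.00414). After GC correction the JeKo-1 change of RB1 was -0.30 (adjusted p = 0.0237). RBL1, the p107 gene and itself an E2F target, fell by 1.17 in Granta-519 (adjusted p = 0.000521) and fell by 2.48 in JeKo-1 (adjusted p = 5.13e-06). RBL2, the gene of p130, the main partner of E2F4 in resting cells, rose in JeKo-1 by 0.78 (adjusted p = 0.000405) and had a change of 0.10 in Granta-519 (adjusted p = 0.567). The changes differed between the lines by 0.64 for RB1 (adjusted p = 0.0116), 1.30 for RBL1 (adjusted p = 0.000137) and -0.67 for RBL2 (adjusted p = 0.00741), Granta-519 minus JeKo-1. The call for RB1 was lost after GC correction (0.25, adjusted p = 0.137) and that for RBL2 with spike-in scaling (0.14, adjusted p = 0.792). Spike-in scaling also ended the calls of RBL1 in Granta-519 (-0.56, adjusted p = 0.0782) and of RBL2 in JeKo-1 (0.66, adjusted p = 0.088).

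Among cyclins, kinases and ubiquitin ligase parts that act on RB or on E2F proteins, 1 of 12 rose and 10 fell in Granta-519, with a median of -0.84, and in JeKo-1 2 of 10 rose and 8 fell, with a median of -1.16. These counts and medians include CCND1, the silenced gene, whose fall in each line was the aim of the design. The JeKo-1 falls include CCNE2, of which only the shCtrl mean (3.66 RPKM, against 0.526 RPKM in shCycD1) reached 1 RPKM. Of all genes tested, 22.4% rose and 18.2% fell in Granta-519, and 36.7% rose and 27.8% fell in JeKo-1. CCNA2, whose cyclin A directs the kinase that ends E2F1 binding to DNA, fell by 1.46 in Granta-519 and fell by 3.69 in JeKo-1. CCND2, the cyclin D2 gene, rose by 1.64 in Granta-519 (adjusted p = 0.000268). It was too low to be tested in JeKo-1, with 0.841 ± 0.0848 RPKM in shCycD1 and 0.130 ± 0.0537 RPKM in shCtrl (SD, n = 3 each). CCND3, the cyclin D3 gene, rose in JeKo-1 by 0.53 (adjusted p = 0.00449) and fell in Granta-519 by 0.27 (adjusted p = 0.0431). FZR1, an activator of the anaphase-promoting complex, rose in JeKo-1 by 0.57 (adjusted p = 0.00131) and fell in Granta-519 by 0.31 (adjusted p = 0.0329). Without 1 library the Granta-519 adjusted p ran from 0.054 to 0.131 for CCND3 and from 0.0172 to 0.112 for FZR1. Spike-in scaling gave CCND3 and FZR1 changes of 0.37 and 0.41 in Granta-519, and cut the falls of this list there to 2. Of all 12668 genes, 161 fell in Granta-519 under spike-in scaling. The same scaling ended the JeKo-1 calls of CCND3 (0.41, adjusted p = 0.358) and FZR1 (0.45, adjusted p = 0.288). After GC correction the JeKo-1 changes were 0.32 for CCND3 (adjusted p = 0.0223) and 0.09 for FZR1 (adjusted p = 0.332).

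On the deposited scale nearly all listed E2F targets of DNA synthesis fell in both lines. Of the 31 listed targets, none rose and 30 fell in Granta-519, where 18.2% of all genes fell, and none rose and 31 fell in JeKo-1, where 27.8% fell. The exception in Granta-519 was POLA1, a DNA polymerase subunit, at 0.07 (adjusted p = 0.578). The medians were -1.20 in Granta-519 and -2.60 in JeKo-1. CCNE2 in JeKo-1 averaged 0.526 RPKM in shCycD1 and 3.66 RPKM in shCtrl, so only its shCtrl mean reached the minimum of 1 RPKM. With spike-in scaling of Granta-519, 11 of the 31 fell and 1 rose, where 161 of all 12668 genes fell and 7362 rose. In JeKo-1 31 still fell under that scaling, where 1734 of all 11866 genes fell and 1688 rose. TK1, thymidine kinase, averaged 37.5 ± 2.0 RPKM in Granta-519 shCycD1 and 113 RPKM in Granta-519 shCtrl, a log2 change of -1.57 (adjusted p = 0.000187). ORC1, a subunit of the origin recognition complex, fell by 1.51 in Granta-519 (adjusted p = 0.000339). CDK1, the mitotic kinase, averaged 6.75 ± 1.21 RPKM in JeKo-1 shCycD1 and 110 RPKM in JeKo-1 shCtrl, a log2 change of -3.94 (adjusted p = 1.55e-06). RRM2, the ribonucleotide reductase subunit, fell by 3.83 in JeKo-1 (adjusted p = 6.18e-07). This list shares CCNE1, CCNE2 and CCNA2 with the list of cyclins and kinases, RBL1 with the pocket proteins and MYBL2 with the MuvB list.

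Targets through which E2F1 can promote apoptosis gave called members in both directions. Of the measured ones, 1 of 8 rose and 4 fell in Granta-519, and in JeKo-1 3 of 9 rose and 2 fell, with medians of -0.27 and 0.06. The JeKo-1 counts lie near the 36.7% of all genes that rose there and the 27.8% that fell, and in Granta-519 these shares were 22.4% and 18.2%. TP73, a p53 relative, fell by 0.78 in Granta-519 (adjusted p = 0.00133) and fell by 0.69 in JeKo-1 (adjusted p = 0.000853). In JeKo-1 it had 0.623 ± 0.0445 RPKM in shCycD1 and 1.31 ± 0.147 RPKM in shCtrl, so it reached the minimum through shCtrl alone, and its change ran from -0.97 with a pseudocount of 0.1 to -0.51 with a pseudocount of 1. Spike-in scaling ended the TP73 call in Granta-519 (-0.23, adjusted p = 0.429). APAF1, the scaffold of caspase activation, fell by 0.61 in Granta-519 (adjusted p = 0.0358) and fell by 1.03 in JeKo-1 (adjusted p = 0.000484). In Granta-519 it stood at 0.02 with spike-in scaling, and its adjusted p reached 0.113 without 1 library. CASP8, an initiator caspase, rose by 0.51 in Granta-519 (adjusted p = 0.00292), and in JeKo-1 it rose by 0.55 (adjusted p = 0.00655). The JeKo-1 change of CASP8 was 0.43 and not called once scaled by the spike-ins (adjusted p = 0.325). The BH3-only genes BBC3 and HRK rose in JeKo-1 by 1.12 (adjusted p = 0.00138) and 0.97 (adjusted p = 0.000521), and after GC correction the BBC3 change was 0.38 (adjusted p = 0.0475).

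The MuvB core joins E2F4 and p130 in the repressive DREAM complex and later works with B-MYB and FOXM1. Of the 8 genes listed for it, 1 rose and 6 fell in Granta-519, and of the 7 measured in JeKo-1 none rose and 5 fell, with medians of -0.83 and -0.84. Among all genes 18.2% fell in Granta-519 and 27.8% in JeKo-1. MYBL2, the B-MYB gene, fell by 1.48 in Granta-519 (adjusted p = 0.000268) and fell by 2.82 in JeKo-1 (adjusted p = 1.01e-06). FOXM1 fell by 1.48 in Granta-519 (adjusted p = 0.000239) and fell by 3.38 in JeKo-1 (adjusted p = 8.64e-07). LIN37, a MuvB subunit, rose by 0.50 in Granta-519 (adjusted p = 0.00657) and had a change of 0.47 in JeKo-1 (adjusted p = 0.0634). With spike-in scaling the falls numbered 2 in Granta-519, where 161 of all 12668 genes fell. They numbered 4 in JeKo-1, where 1734 of all 11866 genes fell.

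Partners of E2F6 in its Polycomb complex gave called members in both directions. Of the 12 partners, 3 rose and 5 fell in Granta-519, whereas in JeKo-1 3 rose and 7 fell, with medians of -0.01 and -0.36. The shares over all genes were 22.4% higher and 18.2% lower in Granta-519, against 36.7% higher and 27.8% lower in JeKo-1, so the rises lie near or below those of all genes. WDR5 fell by 1.01 in Granta-519 (adjusted p = 0.000463) and fell by 1.18 in JeKo-1 (adjusted p = 1.24e-05). PCGF6, the Polycomb subunit that marks this complex, fell by 0.65 in Granta-519 (adjusted p = 0.00291) and fell by 0.98 in JeKo-1 (adjusted p = 0.000135). MAX, the partner of MGA in the complex, rose by 0.30 in Granta-519 (adjusted p = 0.0257), and in JeKo-1 it rose by 0.48 (adjusted p = 0.0102). RYBP rose by 0.50 in Granta-519 (adjusted p = 0.00577) and L3MBTL2 by 0.31 in JeKo-1 (adjusted p = 0.0157). Without 1 library the adjusted p reached 0.0986 for MAX in Granta-519 and 0.055 for L3MBTL2 in JeKo-1. With spike-in scaling 6 rose and none fell in Granta-519, where 7362 of all 12668 genes rose and 161 fell. None rose and 4 fell in JeKo-1 under that scaling, where 1688 of all 11866 genes rose and 1734 fell. Calls lost under that scaling include WDR5 (-0.28, adjusted p = 0.405) and PCGF6 (-0.10, adjusted p = 0.725) in Granta-519, and MAX (0.35, adjusted p = 0.441) and L3MBTL2 (0.19, adjusted p = 0.699) in JeKo-1. L3MBTL2 in JeKo-1 was also not called after GC correction (0.10, adjusted p = 0.290). Of 5 germline genes that E2F6 is known to repress in mice, only STAG3 was high enough to test in either line, with a change of 0.26 in Granta-519 (adjusted p = 0.0403) and 0.63 in JeKo-1 (adjusted p = 0.0102). The Granta-519 call was lost in each fit without 1 library (adjusted p of 0.0637 to 0.132), and the JeKo-1 call with spike-in scaling (0.52, adjusted p = 0.137).

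**Figure D4:**
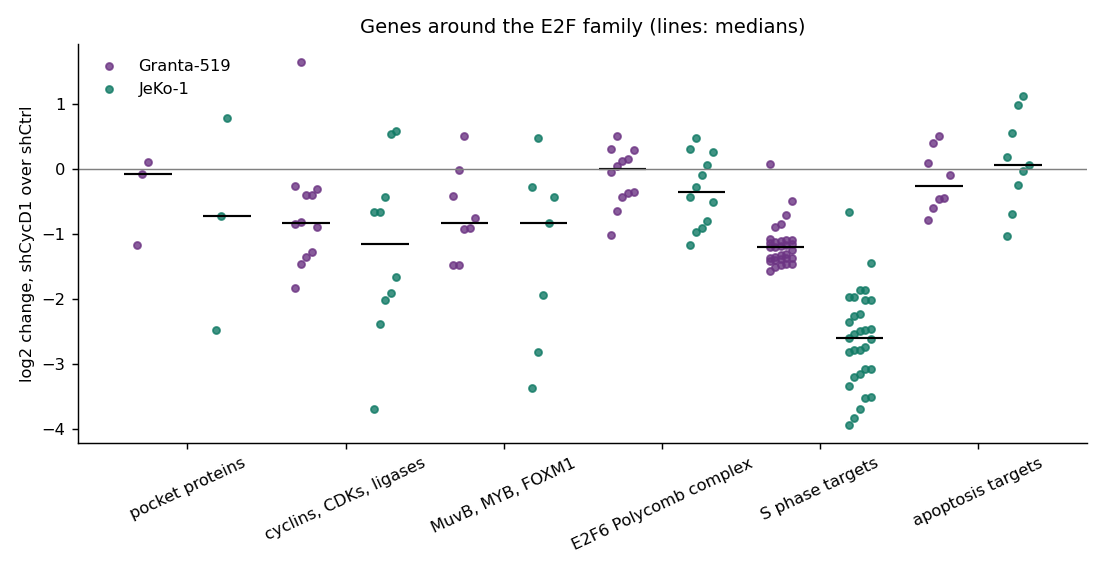
Log2 change (shCycD1 over shCtrl) of each tested gene in 6 lists around the E2F family, Granta-519 in purple and JeKo-1 in green, with a line at each median. The S phase targets lie below 0 in JeKo-1 without exception (median -2.60), whereas the apoptosis targets spread on both sides of 0.

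Across the 12 libraries, after the mean of each line was taken off, the members fell into sets by pattern. E2F1 and E2F2 had r = 0.97 with each other, E2F2 and E2F8 0.99, and E2F1 and TFDP1 0.93. E2F4 and E2F5 had r = 0.92 with each other and -0.95 and -0.92 with E2F7. E2F6 stayed within r of -0.34 and 0.33 with every other member. These values describe libraries that share 4 groups and are given without a test. Of the 10653 genes measured in both lines, those most like E2F1 were POLR2D, SLC43A3 and RFWD3 (r = 0.99 each), and those most like E2F8 were FANCI, UHRF1 and ORC1 (r = 0.998 each). CPXM1, MYBPC2 and MYBL2 were most like E2F2, with r of 0.997, 0.993 and 0.992. STK11, PTDSS2 and SCAF1 were most like E2F4, at 0.993, 0.988 and 0.987, and GPT2, ATG9A and DEPDC5 most like E2F5, at 0.983, 0.981 and 0.981. NBN, CPM and MYO1E led for E2F7 (0.991, 0.991 and 0.989), TAB2, TP53BP2 and TACC1 for E2F3 (0.968, 0.967 and 0.967), and KCMF1 for E2F6 at only 0.875. SUV39H1, TDP1 and FANCE were most like TFDP1 (0.990, 0.986 and 0.986), and FAM117A led for TFDP2 at 0.984.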

How the data were processed

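Messenger RNA of 12 libraries from 2 lymphoma lines was sequenced after stranded library preparation, per the labels' protocols. Tools listed in the submitters' processing notes are FastQC, TopHat2 2.1.1 and limma 3.9, with builds GRCh37 and hg19. The read counter is not given in the sources used here. The authors deposited 1 table per line, with 92 spike-in rows each. The authors deposited natural log values of RPKM + 1, per the file titles for RPKM and a test on the values for the log. In that test, library pairs at equal read numbers exceeded neighbouring ratios 9.89 times in Granta-519 and 3.79 times in JeKo-1 with the natural log, against 1.97 and 1.22 with base 2 and 1.34 and 0.75 with base 10. Genes with RPKM ≥ 1 in ≥ 3 of the 6 libraries of a line were tested, 12668 in Granta-519 and 11866 in JeKo-1.

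log2(RPKM + 0.5) values of each line went into limma 3.58.1 under R 4.3.3, using its trended empirical Bayes, with Benjamini-Hochberg adjustment over all genes. A joint fit gave the difference between the lines. The fit was tested on simulated data. Genes were grouped by the sample titles. The 10 members were all reported, and from each other list the 2 largest rises and falls among called genes per line were named. POLA1 was named after its value was seen, as the exception in its list, and values of CCNE2 were given for its low shCycD1 level in JeKo-1. Members and lists were chosen with earlier results of these data known. Promoters came from RefSeq (GRCh38.p14) and no coordinates of the authors' build are given. Protein sequences were not used here. Alternatives covered the pseudocount, filter, normalization, spike-in scaling, GC content, the replicate number as a block, the row per symbol, the log base of JeKo-1 and each library left out. P-values measure only the spread between libraries.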

Additional observations from a re-analysis of the deposited data

Results flagged for a closer look

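The changes of 6 members after cyclin D1 silencing differed between Granta-519 and JeKo-1 by the joint limma fit, given here as Granta-519 minus JeKo-1 on the log2 scale. The difference was 1.74 for E2F2, 1.74 for E2F7 and 2.03 for E2F8, whose changes were lower in JeKo-1. It was -0.67 for E2F4, -0.99 for E2F5 and -0.77 for TFDP2, whose changes were higher in JeKo-1. With spike-in scaling the differences of E2F4, E2F5 and TFDP2 were not called (0.20, -0.15 and 0.02). Of all 10653 genes tested, 41.9% differed between the lines on the deposited scale. The change of CCND1 was also lower in JeKo-1, by a difference of 0.55 that lost its call after quantile normalization and in 7 of the 12 fits without 1 library, and its part in the differences was not tested.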

How the results depend on the processing

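Counts of called members held within 1.5 times their value under all alternatives except those given here. In Granta-519 the members called higher numbered 0 with a mean RPKM of 5 or more, where TFDP2 was not tested, 3 with spike-in scaling, and 0 to 1 with each library left out. Between the lines, 5 members were higher and 0 lower with spike-in scaling, against 3 and 3. That scaling gave 3872 higher and 143 lower among all 10653 genes, against 2053 and 2410. Activators minus repressors in JeKo-1 came to -1.31 with GC correction and -0.76 if JeKo-1 values are taken as log2. With spike-in scaling, Granta-519 changes turned positive for E2F3 (0.65), E2F5 (0.65), E2F6 (0.70), E2F7 (0.67), APAF1 (0.0222), CCND3 (0.37), FZR1 (0.41) and RB1 (0.64), RYBP in JeKo-1 stood at -0.0511, and differences between the lines stood at 0.20 for E2F4, 0.77 for TFDP1, 0.0154 for TFDP2 and 0.14 for RBL2. With GC correction E2F6 stood at 0.00241 in Granta-519, 0.11 in JeKo-1 and -0.11 for the difference. With JeKo-1 read as log2, the differences of E2F1 and CCND1 stood at -0.0199 and -0.163. Leaving out a library crossed 0 in Granta-519 for E2F5 (-0.127 to 0.0383), E2F6 (-0.0588 to 0.0397), E2F7 (-0.179 to 0.0460) and BBC3 (-0.0218 to 0.162), in JeKo-1 for RYBP (-0.0256 to 0.142), and in the differences of E2F6 (-0.0055 to 0.14) and TFDP1 (-0.158 to 0.0209). The cause of these shifts was not tested.

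Same-numbered libraries had r of -0.12 to 0.04 in Granta-519 and 0.09 to 0.19 in JeKo-1 for their deviations from group means. Libraries with different numbers had r of -0.13 to 0.11 in Granta-519 and -0.10 to 0.0003 in JeKo-1. In JeKo-1 every same-numbered value thus lay above every other value. The labels name no pairing, so the main fit used none, and whether the JeKo-1 libraries were paired was not tested. With the replicate number as a block, 5 members were called in Granta-519, 9 in JeKo-1, where E2F3 was added at -0.31 (adjusted p = 0.0102), and 7 between the lines, where E2F1 was added at 0.53 (adjusted p = 0.00947). Of all genes, that block called 4901 higher and 3806 lower in JeKo-1, against 4357 and 3303 without it. In Granta-519 it called 2285 higher and 1903 lower, against 2840 and 2303. The call of CCND1 between the lines did not hold after quantile normalization (0.38, adjusted p = 0.0886) or in 7 of the 12 fits without 1 library. Depth limits could not be judged in JeKo-1.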

Other observations

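TFDP3, another DP gene and a near copy of TFDP1, was listed with 1.49, 1.73 and 1.59 RPKM in Granta-519 shCycD1 and 2.96, 3.67 and 3.34 RPKM in Granta-519 shCtrl, and with 0 in all JeKo-1 libraries. Its reads, about 11.1 to 27.2 per library, were 0.242 to 0.270% of those of TFDP1 in shCycD1 and 0.209 to 0.243% in shCtrl. Because the copies share sequence, its value is uncertain.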
